A study of Mus musculus with 17 samples.

Results

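The genes that start the type I interferon response to DNA were followed in distant mouse colon tumors after cryoablation of the opposite tumor. The 10 genes were chosen by name, and all are among the 21931 genes of the deposited table: the DNA sensor Cgas, its adaptor Sting1, the kinase Tbk1, the transcription factor Irf3, the DNase Trex1, the cytokine Ifnb1, the receptor chains Ifnar1 and Ifnar2, the alarmin Hmgb1 and the inflammasome sensor Aim2. MC38 cells, a mouse colon carcinoma line, were injected under the skin of both flanks of wild-type C57BL/6J mice aged 6 to 8 weeks, with 500000 cells at a site. In the cryoablation group 1 tumor of each mouse was frozen with a cryoprobe on day 7, in 2 freezing cycles, of 20 s by the labels and of another length by the study's methods, and the unfrozen tumor of the other flank was taken 5 days later. The control group carried the same tumors. The labels name no sham probe or anesthesia for it. There were 9 control tumors and 8 cryoablation tumors, and the labels do not say whether each came from a separate mouse, so the p values measure the spread between these tumors.

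Double-stranded DNA in the cytosol, from dying cells or from the cell itself, binds cGAS, which makes the dinucleotide cGAMP. cGAMP binds STING on the endoplasmic reticulum, STING recruits TBK1, and TBK1 phosphorylates IRF3, which then switches on Ifnb1 in the nucleus. Secreted interferon β binds IFNAR1 and IFNAR2 on the same and on neighboring cells and raises the interferon-stimulated genes. In transplanted tumors this route is best known in dendritic cells and macrophages that take up tumor DNA. Much of it runs through protein modification, which RNA sequencing does not measure.

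The sequences by which the end of the route is read lie in promoters. The first one shown is the stretch before the start of Ifnb1, because this gene is the output of IRF3. The other 4 come from interferon-stimulated genes, chosen after their values were seen, because they carry the response element whose genes serve below as the readout of interferon. They are RefSeq sequences of build GRCm38.p6, printed 5′ to 3′ on the strand of the gene and taken only from the bases before its start. The capitals in Ifnb1 mark the NF-κB motif, searched as GGGA and TTCC with any 2 bases between them. In the others they mark the interferon-stimulated response element, searched as GAAA and GAAA with any 2 bases between them. Both motifs were searched on both strands, and overlapping matches were merged into 1 run of capitals.
Ifnb1 (chr4:88522871-88522970, minus strand): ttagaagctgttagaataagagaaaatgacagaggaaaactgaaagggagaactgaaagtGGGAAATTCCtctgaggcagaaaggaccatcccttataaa
Isg15 (chr4:156200872-156200911, minus strand): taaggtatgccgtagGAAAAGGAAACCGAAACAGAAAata
Ifit1 (chr19:34640770-34640809, plus strand): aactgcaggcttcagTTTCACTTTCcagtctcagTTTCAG
Rsad2 (chr12:26456548-26456587, minus strand): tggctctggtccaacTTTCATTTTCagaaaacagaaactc
Cxcl10 (chr5:92349078-92349117, minus strand): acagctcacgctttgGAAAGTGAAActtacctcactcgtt
Isg15 held 3 overlapping matches of the response element before its start and Ifit1 held 2, of which the second is cut by the end of the stretch. Over windows of 300 bases, from 250 before to 50 after the start, 3.99% of 27025 genes held the response element and 1.63% held the NF-κB motif. Promoters were found for 9 of the 10 members. None of the 9 held the response element and 1, Ifnb1, held the NF-κB motif. The Ifnb1 stretch shows GAAA and GAAA with 3 bases between them, a spacing the search did not count. Sites for IRF3 in it are thus not excluded. Of the 24 interferon-stimulated genes listed for this work 17 had a promoter in the table, and 10 of these held the response element. A match is a description of letters, and no match says only that these letters are not in the window.

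Total counts ran from 13524899 to 17898672 per tumor, so that 3 counts corresponded to 0.168 to 0.222 CPM (counts-per-million of the library). Below, CPM are TMM-normalized. On the first principal component of the 500 most variable genes, with 64.0% of their variance, cryoablation replicates 2, 4 and 5 stood apart at -25.5, -31.5 and -31.3, while the other 14 tumors lay between -9.52 and 16.7. Where leaving out these 3 tumors moved a fold change by over 1.5 times or turned it, the value without them is given. This covers only the members, the 2 genes named from each pathway list by p, and genes overlapping a member. For other genes named, such as Rsad2, Ifit1 and the cell markers, no value without these tumors is given. Of 8 markers of colon epithelium 5 were tested, among them Cdh1 at 5.31 to 26.2 CPM and Krt8 at 0 to 58.8 CPM, while Cdx2 had no count in any tumor and Krt20 and Vil1 were too low to test. The summed FPKM (counts scaled by gene length and by the total of the tumor) of 5 leukocyte markers ran from 124 to 373 in control and from 95.9 to 260 in cryoablation tumors. In such bulk RNA, fewer cells of a type and less RNA per cell cannot be told apart.

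No member passed the edgeR quasi-likelihood test between the groups. Of the 10 members 8 had enough counts to be tested, and 0 of these 8 had an unadjusted p under 0.05. Over all 13005 genes tested, 639 genes or 4.91% had such a p, 487 of them (3.74%) higher after cryoablation and 152 (1.17%) lower. After Benjamini-Hochberg adjustment 0 genes (0%) passed, with a smallest adjusted p of 0.728, and DESeq2, limma voom and edgeR's exact test also gave 0, with 881, 1312 and 777 genes at an unadjusted p under 0.05. In no gene (0%) were the groups free of overlap in CPM, the members included. The members' levels per length, as median FPKM over all 17 tumors, were in the order Hmgb1 (70.2), Sting1 (26.0), Irf3 (16.1), Ifnar1 (15.8), Tbk1 (14.6), Ifnar2 (10.1), Aim2 (3.11) and Cgas (1.80), and the median of Ifnb1 and of Trex1 was 0. Hmgb1 was above Sting1, Ifnar2 above Aim2, and Cgas above Ifnb1 in all 17 tumors. Among neighbors, only the ranges of Hmgb1 and Sting1 did not overlap. Irf3 was above Ifnar1 in 9 of 17 tumors, so this pair was not separated, while Sting1 was above Irf3 and Tbk1 above Ifnar2 in 13, Ifnar1 above Tbk1 in 14 and Aim2 above Cgas in 16.

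**Figure D1:**
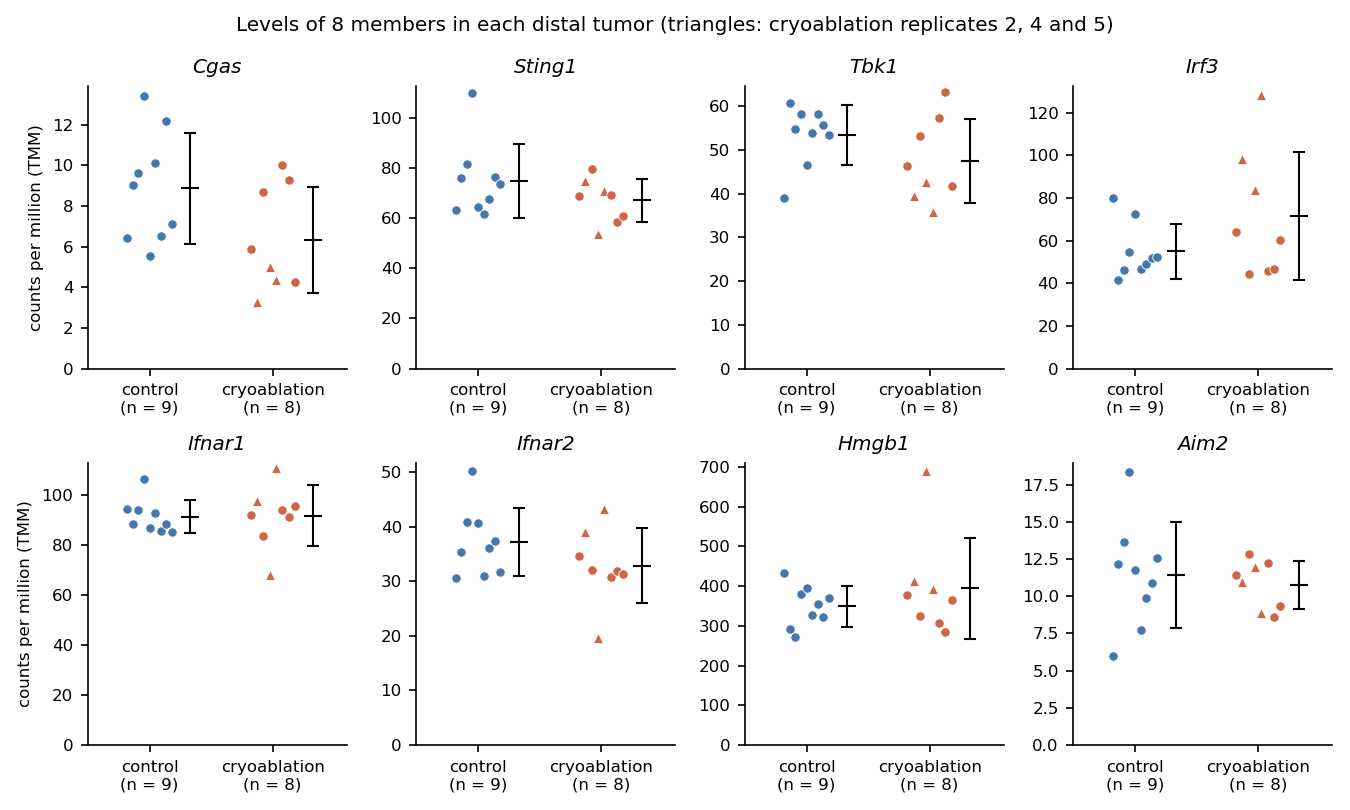
CPM (TMM-normalized, axes from 0) of the 8 members tested, with 1 point per tumor and the mean ± SD beside each group. The groups overlapped for every one of the 8 members, and cryoablation replicates 2, 4 and 5 (triangles) held the 3 highest values of Irf3.

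Cgas, the enzyme that senses DNA and makes cGAMP (ENSMUSG00000032344, chromosome 9, 78337808 to 78350519, minus strand, in the authors' table), was the scarcest of the members that could be tested. In control tumors it ran from 5.52 to 13.4 CPM with a median of 9.02, and in cryoablation tumors from 3.27 to 10.0 CPM with a median of 5.45. Of the 8 cryoablation tumors 6 lay under the control median, 4 of 8 lay inside the control range, and the lowest value was in cryoablation replicate 2. The means were 8.88 ± 2.73 CPM (SD, n = 9) and 6.34 ± 2.60 CPM (SD, n = 8). This was a log2 fold change of -0.48 (SE 0.24, 95% confidence interval -0.99 to 0.04), with an edgeR p of 0.0621 and an adjusted p of 0.728, and the two-sided exact permutation test gave p = 0.0552. Of all genes tested 6.94% had a smaller p. Without cryoablation replicates 2, 4 and 5 the log2 fold change of Cgas was -0.23. Its counts were 38 to 231 per tumor, and its tumors scattered more than those of 74.8% of genes by the biological coefficient of variation.

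Sting1, the membrane adaptor that cGAMP binds (ENSMUSG00000024349, chromosome 18, 35866732 to 35873607, minus strand), ran from 61.9 to 110.1 CPM with a median of 73.7 in control tumors and from 53.9 to 79.9 CPM with a median of 69.1 in cryoablation tumors. Control replicate 4 was far above the rest, since the next control tumor had 81.6 CPM. On the log2 scale the fold change was -0.16 (SE 0.11, 95% confidence interval -0.40 to 0.09), with an edgeR p of 0.181 (exact permutation p = 0.205), and it was -0.079 without control replicate 4 and -0.16 without cryoablation replicates 2, 4 and 5. Under the control median lay 6 of the 8 cryoablation tumors, and 5 of 8 lay inside the control range.

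Tbk1, the kinase that STING recruits (ENSMUSG00000020115, chromosome 10, 121382360 to 121422692, minus strand), had 38.9 to 60.8 CPM with a median of 54.8 in control tumors. It had 35.8 to 63.2 CPM with a median of 44.5 in cryoablation tumors, whose replicate 5 was the lowest and replicate 7 the highest of all 17 tumors. The log2 fold change of Tbk1 was -0.17 (SE 0.12, 95% confidence interval -0.42 to 0.08), with an edgeR p of 0.167 (exact permutation p = 0.139), and -0.037 without cryoablation replicates 2, 4 and 5.

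Irf3, the transcription factor that TBK1 activates (ENSMUSG00000003184, chromosome 7, 44647072 to 44652272, plus strand), had the largest positive difference of the members. In control tumors it ran from 41.3 to 80.2 CPM with a median of 51.9, and in cryoablation tumors from 44.2 to 128 CPM with a median of 62.4. Cryoablation replicates 5, 2 and 4 held the 3 highest values, at 128, 98.4 and 83.6 CPM, followed by control replicates 1 and 5 at 80.2 and 72.4. The other 5 cryoablation tumors, at 44.2 to 64.3 CPM, lay inside the control range. Its log2 fold change was 0.38 (SE 0.21, 95% confidence interval -0.07 to 0.82), with an edgeR p of 0.0860 and an exact permutation p of 0.179. It was 0.20 without cryoablation replicate 5, and without cryoablation replicates 2, 4 and 5 it turned to -0.080. The 5 tumors with the most Irf3 were also the 5 lowest on the first principal component, and their log2 counts had slopes of -0.39 to -0.13 per doubling of gene length, against -0.014 to 0.23 in the other 12 tumors. With offsets for gene length the log2 fold change of Irf3 was 0.35. The part of these libraries in the value of Irf3 was not tested further. Irf3 overlaps Bcl2l12, an antisense gene in the authors' table, over 1065 bases, and the strand used in counting is not given in the sources used here. Bcl2l12 had 69 to 118 counts per tumor, and Irf3 had 715 to 1329.

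Ifnb1, the interferon β gene (ENSMUSG00000048806, chromosome 4, 88440262 to 88441011, minus strand), had next to no reads. Over all 17 tumors it had 27 reads, and a read was found in 8 tumors, 4 of each group. Control replicate 2 had 13 counts and cryoablation replicate 6 had 7, and every other tumor had 2 counts or fewer, which is under the limit of 3 counts that a count of 0 allows. In CPM these 2 tumors were at 0.751 and 0.398. Both groups were at or under the floor apart from these single tumors, so no fold change is given, and a difference in Ifnb1 was not detectable at this depth. The 17 other genes of type I interferons listed (13 Ifna genes, Ifnab, Ifne, Ifnk and Ifnz) had 34 reads in all, in 6 of the genes, with at most 6 counts of 1 gene in a tumor, and none could be tested. The Ifna genes are near-identical copies, so reads of one may be set to another. Such limits cover counting error only.

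Ifnar1 and Ifnar2, the chains of the receptor for all type I interferons, were well expressed. Ifnar1 (ENSMUSG00000022967, chromosome 16, 91282126 to 91304329, plus strand) ran from 85.1 to 107 CPM with a median of 88.7 in control tumors and from 68.1 to 111 CPM with a median of 93.1 in cryoablation tumors. Cryoablation replicate 4 was the lowest of all tumors and cryoablation replicate 5 the highest. In Ifnar1 the log2 fold change was 0.00 (SE 0.09, 95% confidence interval -0.18 to 0.18), with an edgeR p of 0.970 (exact permutation p = 0.951). Its scatter was among the smallest, since 6.99% of genes tested had a lower biological coefficient of variation. Ifnar2 (ENSMUSG00000022971, chromosome 16, 91169671 to 91202477, plus strand) ran from 30.6 to 50.3 CPM with a median of 36.2 in control tumors and from 19.6 to 43.2 CPM with a median of 32.0 in cryoablation tumors. Control replicate 4 was again the highest and cryoablation replicate 4 the lowest. In Ifnar2 it was -0.18 (SE 0.13, 95% confidence interval -0.46 to 0.11), with an edgeR p of 0.198 (exact permutation p = 0.191). It was -0.098 without cryoablation replicate 4 and -0.21 without cryoablation replicates 2, 4 and 5.

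Trex1, the exonuclease that degrades cytosolic DNA before cGAS can bind it (ENSMUSG00000049734, chromosome 9, 108887001 to 108888802, minus strand), is listed at 0 counts in all 17 tumors. The whole of its span in the authors' table lies inside Atrip, a gene of the DNA damage checkpoint on the same strand. Atrip had 230 to 393 counts per tumor, and its log2 fold change was 0.09 (SE 0.10, exact permutation p = 0.397). How reads shared by genes were counted is not given in the sources used here, so an unexpressed Trex1 and reads set aside or given to Atrip cannot be told apart.

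Hmgb1, a chromatin protein that acts as an alarmin when dying cells release it (ENSMUSG00000066551, chromosome 5, 148983512 to 149121299, minus strand), was the most abundant member. It ran from 271 to 432 CPM with a median of 354 in control tumors and from 284 to 690 CPM with a median of 372 in cryoablation tumors. Cryoablation replicate 4 had the 690 CPM, and the next tumor of its group had 412. For Hmgb1 the log2 fold change was 0.17 (SE 0.15, 95% confidence interval -0.15 to 0.50), with an edgeR p of 0.268 (exact permutation p = 0.426). It was 0.011 without cryoablation replicate 4 and -0.082 without cryoablation replicates 2, 4 and 5.

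Aim2, which binds cytosolic DNA and builds an inflammasome in place of an interferon signal (ENSMUSG00000037860, chromosome 1, 173178445 to 173293606, plus strand), ran from 5.97 to 18.4 CPM with a median of 11.8 in control tumors and from 8.62 to 12.8 CPM with a median of 11.2 in cryoablation tumors. All 8 cryoablation tumors lay inside the control range, whose ends were control replicates 1 and 4. For Aim2 the log2 fold change was -0.09 (SE 0.18, 95% confidence interval -0.46 to 0.29), with an edgeR p of 0.627 (exact permutation p = 0.843), and it turned to 0.020 without control replicate 4. Aim2 overlaps Cadm3, on the other strand, over 16817 bases, and Cadm3 had 362 reads in all tumors together. Of the other members Hmgb1 overlaps Uspl1, on the other strand, over 140 bases, and Ifnar2 overlaps Gm21970, which had 0 reads.

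**Figure D2:**
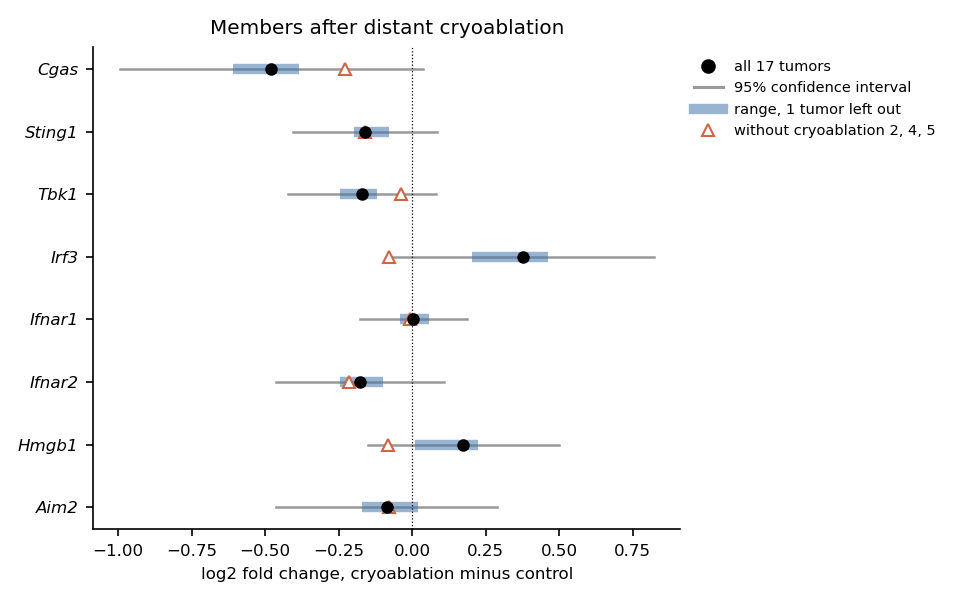
Log2 fold change (cryoablation minus control) of the 8 members tested, with the 95% confidence interval (gray line), the range when 1 tumor is left out (blue bar) and the value without cryoablation replicates 2, 4 and 5 (open triangle). Every interval includes 0, and the triangles of Irf3 and Hmgb1 lie at -0.080 and -0.082 while their circles lie at 0.38 and 0.17.

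Levels of Tbk1 fell into 2 clusters, between which Irf3 and Cgas also differed. The widest gap in Tbk1 separated 7 tumors at 35.8 to 46.5 CPM from 10 tumors at 53.1 to 63.2 CPM. On the low side of Tbk1 stood control replicates 1 and 5 and cryoablation replicates 1, 2, 4, 5 and 8, that is 2 of 9 control and 5 of 8 cryoablation tumors. The same 7 tumors had 60.4 to 128 CPM of Irf3 against 41.3 to 54.7 CPM in the other 10. They had 3.27 to 6.42 CPM of Cgas against 6.52 to 13.4 CPM. Neither range overlapped, although the Cgas ranges nearly met, and Cgas values had wider gaps elsewhere. The split was chosen from Tbk1 after the data were seen. How many of all genes separate at it was not counted, so the separation cannot be called particular to these genes. Hmgb1 ran from 366 to 690 CPM in the 7 tumors and from 271 to 379 CPM in the 10, with overlap. Because the tumors formed 2 clusters, the relations were computed within each. Of 6 such relations, Tbk1 with Irf3 in the 7 tumors had Pearson r = -0.78 (exact permutation p = 0.0379, adjusted over the 6 relations 0.227) and Spearman rho = -0.61 (exact permutation p = 0.167). In the 10 tumors Tbk1 and Irf3 had r = -0.18 (permutation p = 0.615) and rho = 0.05 (permutation p = 0.891). Cgas and Tbk1 had r = 0.42 in the 7 tumors and r = 0.07 in the 10, with permutation p values of 0.350 and 0.846 (exact for the 7). None of the 6 relations passed the adjustment. The split narrows the range of Tbk1 on each side, which weakens a relation, so this cannot show that the genes are unrelated. Within control and within cryoablation tumors, each with tumors of both sides, Tbk1 and Irf3 had r = -0.90 and -0.90. Cgas and Tbk1 had r = 0.56 and 0.92 there.

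**Figure D3:**
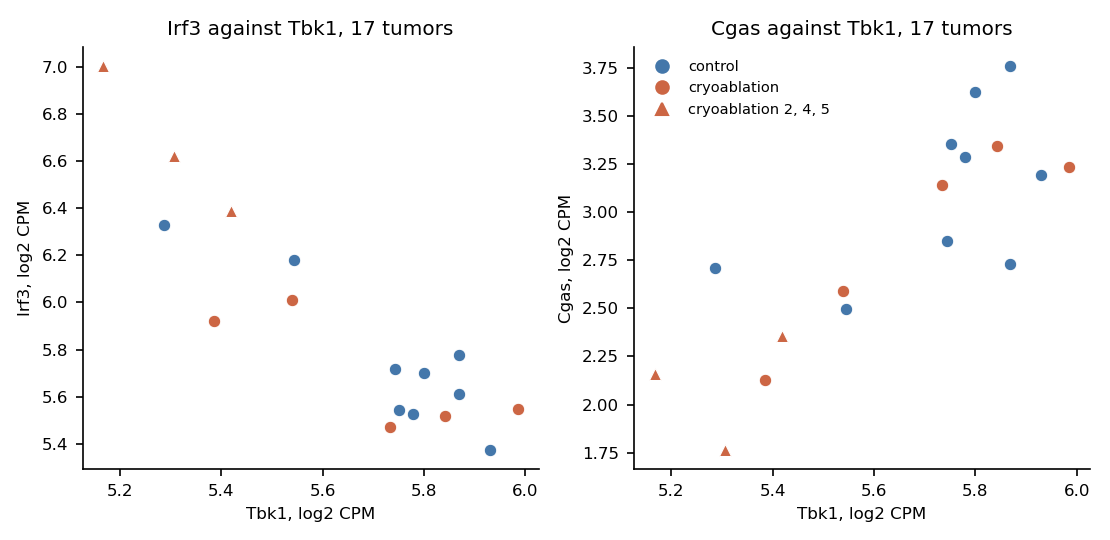
Log2 CPM of Irf3 and of Cgas against that of Tbk1, with 1 point per tumor. The 10 tumors of one cluster lie together at high Tbk1, and 7 tumors, with cryoablation replicates 2, 4 and 5 (triangles) among them, lie apart at low Tbk1, high Irf3 and low Cgas.

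Over all 17 tumors 28 pairs of members were computed, and 9 passed the adjustment. Of these, 6 pairs hold only Tbk1, Irf3, Cgas and Hmgb1, for which the clusters stand apart or nearly so, and no pooled value is given for them. Sting1 and Aim2 had Pearson r = 0.68 (permutation p = 0.00442, adjusted over the 28 pairs 0.0155) and Spearman rho = 0.67 (permutation p = 0.00446) over 17 tumors, and r = 0.70 without the 2 tumors farthest from the median of Sting1. Within the 9 control tumors r was 0.83 and within the 8 cryoablation tumors 0.33. Sting1 and Ifnar2 had r = 0.74 (permutation p = 0.00250, adjusted 0.0140) and rho = 0.66 (permutation p = 0.00496), but r = 0.42 without the 2 tumors farthest from the median of Sting1, with r = 0.80 within control and 0.69 within cryoablation tumors. Ifnar1 and Ifnar2 had r = 0.77 (permutation p = 0.00150, adjusted 0.0105) but rho = 0.31 (permutation p = 0.2201), and r = 0.44 without the 2 tumors farthest from the median of Ifnar1, so the relation of Ifnar1 with Ifnar2 rested on those tumors. All pairs share the same libraries.

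As a description, the genes whose log2 CPM followed each member most closely over the 17 tumors were named. For Cgas these were Epha2 (r = 0.92), Ncoa1 (0.91) and Top1 (0.91), and for Tbk1 they were Zfp568, Alg13 and Bicd2 (all 0.96). For Irf3 they were Bin1, Sart1 and Hras (all 0.99), all with r = 0.97 in the 14 tumors without cryoablation replicates 2, 4 and 5. For Sting1 they were Gimap4 (0.96), a GTPase of lymphocytes, Dock2 (0.95), a guanine nucleotide exchange factor of leukocytes, and Slc31a2 (0.93). For Aim2 they were Ctla4 (0.89), an inhibitory receptor of T cells, Clcn7 (0.88) and the leukocyte tetraspanin Cd53 (0.87). For Hmgb1 they were Nudcd2 (0.96), Srsf3 (0.96) and Rnf7 (0.95). With offsets for gene length Nudcd2 was at r = 0.42 and Rnf7 at -0.11 with Hmgb1, Dock2 at 0.54 with Sting1, and Nagpa and Arhgdib at 0.45 and 0.19 with Ifnar1, while the other neighbors of the 8 members kept r of 0.70 or more. The neighbors of Ifnar1 (Pxn, Nagpa and Arhgdib, r of 0.85 to 0.87) had r of 0.51 to 0.58 in the 14 tumors, and those of Ifnar2 (Pltp, Carmil2 and B4galnt1, 0.88 to 0.92) had 0.78 to 0.80.

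Genes that interferon turns on were used as a readout of interferon. Which signal set their level was not tested, and Ifnb1 had next to no reads. Of 24 interferon-stimulated genes listed, 24 were tested, 0 were higher and 2 lower at an unadjusted p under 0.05, against 3.74% and 1.17% of all genes, and none passed the adjustment. Their median log2 fold change was -0.42, against -0.01 over all genes tested, and 20 of the 24 values were below 0. Over the 28 settings this median ran from -0.59 to -0.22. The 2 lower genes were Mx1, a GTPase that blocks virus replication, and Ifit2, which binds foreign RNA. Mx1 ran from 8.44 to 48.5 CPM (median 19.9) in control and from 5.23 to 27.4 CPM (median 10.3) in cryoablation tumors, a log2 fold change of -0.77 (SE 0.36, edgeR p = 0.0442, adjusted 0.728, exact permutation p = 0.0592). Ifit2 ran from 24.2 to 85.4 CPM (median 44.6) and from 18.8 to 56.1 CPM (median 29.5), a log2 fold change of -0.53 (SE 0.25, edgeR p = 0.0481, adjusted 0.728, exact permutation p = 0.0585). The groups overlapped in both, with 6 of 8 cryoablation tumors under the control median. Without cryoablation replicates 2, 4 and 5 both lost the call, at -0.47 for Mx1 and -0.26 for Ifit2, and without control replicate 2, the highest tumor, they were -0.57 and -0.40. Over single tumors left out, Mx1 lay between -1.001 and -0.57 and lost the call for 10 of the 17, and Ifit2 lay between -0.67 and -0.40 and lost it for 11.

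For the 4 genes whose response elements are shown above the values differed. Rsad2 had a log2 fold change of -0.88, Ifit1 of -0.60, Cxcl10 of -0.51 and Isg15 of 0.00, with exact permutation p values of 0.137, 0.182, 0.209 and 0.938. Rsad2 ran from 6.27 to 68.3 CPM in control and from 6.75 to 31.8 CPM in cryoablation tumors, and Isg15 from 29.5 to 105 and from 21.3 to 103 CPM. The mean log2 CPM of the 24 genes, used as a score, was 5.26 ± 0.74 (SD, n = 9) in control and 4.95 ± 0.49 (SD, n = 8) in cryoablation tumors. It ran from 4.12 to 6.48 with a median of 5.47 in control and from 4.41 to 5.70 with a median of 4.77 in cryoablation tumors, a difference of -0.31 (exact permutation p = 0.322) that became -0.16 without control replicate 2. That tumor had the highest score and also the most Ifnb1 reads of all, and cryoablation replicate 6, with the most Ifnb1 reads of its group, had 5.66.

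Across tumors, 4 of 8 members, all with r above 0, were related to the score at an unadjusted permutation p under 0.05, against 11.2% of 12981 genes outside the score. Aim2 had Pearson r = 0.65 (permutation p = 0.00372) and Spearman rho = 0.65 (permutation p = 0.00533), and 1.59% of the genes had a higher r. Sting1 had r = 0.59 (permutation p = 0.0115) and rho = 0.68 (permutation p = 0.00347), and 2.70% of the genes had a higher r. Cgas and Tbk1 both had r = 0.49, with permutation p values of 0.0448 and 0.0456, and rho of 0.43 and 0.39, with permutation p values of 0.0848 and 0.117. Adjusted over the 12981 genes, no member passed, with adjusted p values of 0.225 for Aim2 and 0.343 for Sting1, while 78 other genes did. Irf3 had r = -0.44 (permutation p = 0.0764) and rho = -0.49 (permutation p = 0.0485), and Hmgb1 had r = -0.44 (permutation p = 0.0710) and rho = -0.39 (permutation p = 0.126). Ifnar1 had r = 0.063 and rho = 0.029, and Ifnar2 had r = 0.38 and rho = 0.48, with permutation p values from 0.0530 to 0.913. Without the 2 tumors farthest from the median score, control replicates 2 and 3, r was 0.69 for Aim2, 0.60 for Sting1, 0.47 for Cgas and 0.38 for Tbk1, and only Aim2 and Sting1 kept a permutation p under 0.05 (0.00363 and 0.0122, against 0.0816 and 0.155). Within control tumors Aim2 had r = 0.69 and Sting1 r = 0.54, and within cryoablation tumors both had r = 0.60, with exact permutation p values from 0.0407 to 0.136.

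**Figure D4:**
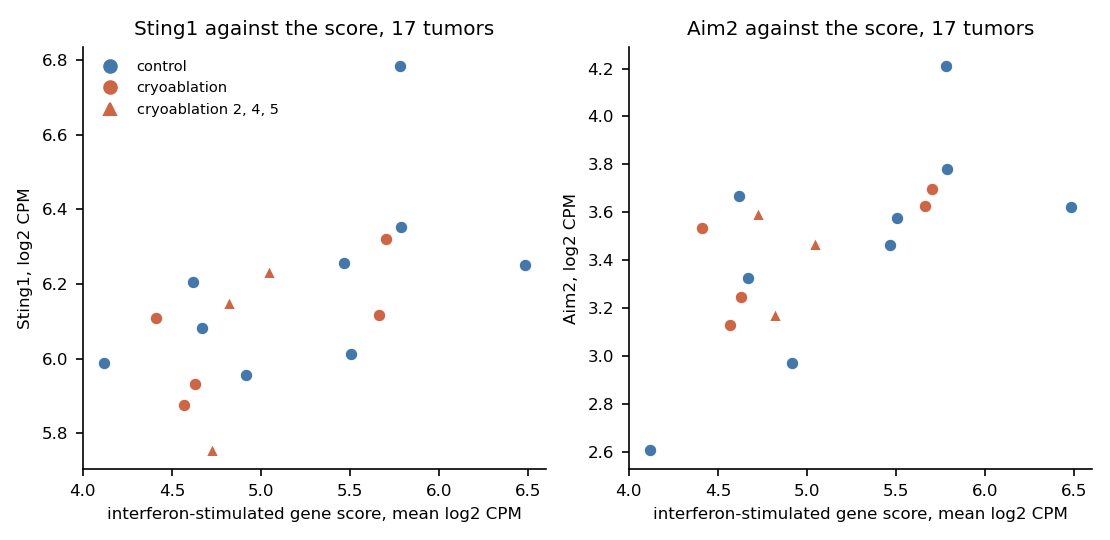
Log2 CPM of Sting1 and of Aim2 against the mean log2 CPM of 24 interferon-stimulated genes, with 1 point per tumor. Both rise with the score (Pearson r of 0.59 and 0.65), and control replicate 4 has the highest value of both genes.

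Around the members, the other sensors of nucleic acids did not pass the test either. Of 16 sensors and adaptors tested 0 were called in either direction, 15 had a log2 fold change below 0, and their median was -0.21 (-0.30 to -0.13 over the 28 settings). The smallest p values were those of Tlr7, the endosomal sensor of single-stranded RNA, at -0.40 (SE 0.20, exact permutation p = 0.0961), and Ddx58, which encodes the RNA sensor RIG-I, at -0.42 (SE 0.24, exact permutation p = 0.118). Ddx58 ran from 28.2 to 102 CPM in control and from 26.5 to 72.4 CPM in cryoablation tumors, and Tlr7 from 5.30 to 14.04 and from 5.00 to 10.7 CPM, so both overlapped. Ddx58 was at -0.17 without cryoablation replicates 2, 4 and 5. Of 8 other interferon regulatory factors 7 were tested, 0 were called and 7 lay below 0, with a median of -0.24 (-0.32 to -0.11). The lists share genes and are not independent. Irf7 is also among the interferon-stimulated genes, as is Usp18 of the receptor signaling list, and Irf9 is also in that signaling list. Irf4, a factor of lymphocytes, was at -0.68 (exact permutation p = 0.169) and Irf5, which acts behind Toll-like receptors, at -0.27 (exact permutation p = 0.294). In both, control replicate 4 was the highest tumor, and without it the values were -0.40 and -0.095. Irf5 was at -0.43 without cryoablation replicates 2, 4 and 5.

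Nucleases and regulators of nucleotides, which with Trex1 keep DNA and cGAMP in check, had a median of 0.11, whose direction turned over the settings (-0.20 to 0.19). Of 14 listed 13 were tested, 1 was higher and 0 were lower. The called gene, Dnase2a, the acid DNase of lysosomes, ran from 34.8 to 51.6 CPM (median 38.1) in control and from 32.2 to 91.9 CPM (median 45.3) in cryoablation tumors, with a log2 fold change of 0.44 (SE 0.20, edgeR p = 0.0415, adjusted 0.728, exact permutation p = 0.132). Rnaseh2c, a subunit of the enzyme that cuts RNA paired with DNA, was at 0.74 (SE 0.36, exact permutation p = 0.179). Without cryoablation replicates 2, 4 and 5 the values were -0.059 for Dnase2a and -0.20 for Rnaseh2c, which was 0.47 without cryoablation replicate 5 alone. Over single tumors left out, Dnase2a lay between 0.28 and 0.51 and lost the call for 10 of the 17. Over all 28 settings it had an unadjusted p under 0.05 in 15.

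Of 18 partners of STING and TBK1 tested 0 were called, with a median of -0.04 (-0.11 to -0.0036 over the settings). Optn, an autophagy receptor that TBK1 phosphorylates, was at -0.24 (SE 0.12, edgeR p = 0.0568, adjusted 0.728, exact permutation p = 0.0315), and Stim1, a calcium sensor that holds STING in the endoplasmic reticulum, at -0.19 (exact permutation p = 0.0867). They were at -0.14 and -0.021 without cryoablation replicates 2, 4 and 5. Behind the receptor, of 16 signaling genes 15 were tested and 0 were called, with a median of -0.10 (-0.14 to 0.00072). Usp18, which silences IFNAR2, was at -0.45 (exact permutation p = 0.261), and Stat2, the transcription factor that carries the signal to the nucleus, at -0.36 (exact permutation p = 0.307). Without control replicate 2 they were at -0.24 and -0.20, and Stat2 was at -0.17 without cryoablation replicates 2, 4 and 5. Of 8 HMGB relatives and HMGB1 receptors 7 were tested and 0 were called, with a median of -0.06 that turned over the settings (-0.14 to 0.056). Hmgb2 was at 0.14 (exact permutation p = 0.394) and at 0.022 without cryoablation replicate 4, and Cd24a, whose protein dampens the response to HMGB1, was at -0.64 (exact permutation p = 0.473) with 60.3 CPM in control replicate 4 alone. Cd24a was at 0.056 without that tumor, -1.06 without cryoablation replicate 4 and -1.35 without cryoablation replicates 2, 4 and 5. Of 10 genes of the AIM2 inflammasome 10 were tested and 0 were called, with a median of 0.05 that also turned (-0.14 to 0.15). Il18, a cytokine that the inflammasome releases, was at 0.33 (exact permutation p = 0.106), and Gsdmd, which forms the pore for it, at 0.27 (exact permutation p = 0.249). Il18 was at 0.19 without cryoablation replicate 4 and Gsdmd at 0.14 without cryoablation replicate 5, and without replicates 2, 4 and 5 they were at 0.049 and -0.052.

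**Figure D5:**
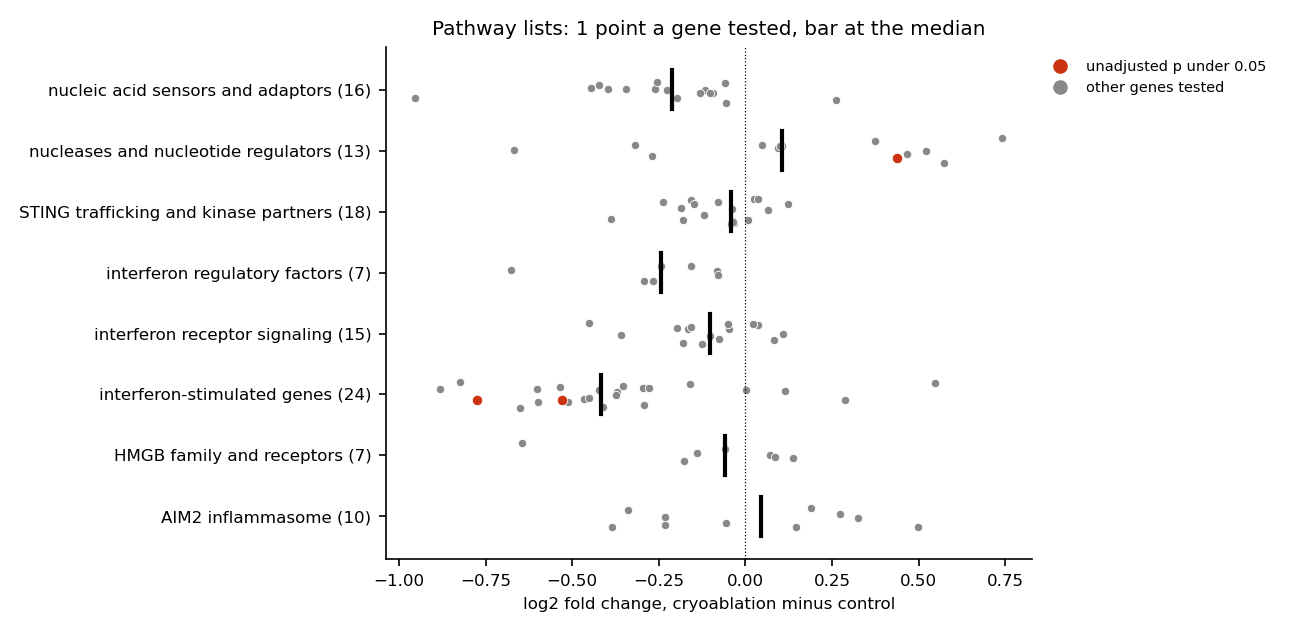
Log2 fold change (cryoablation minus control) of each gene tested in 8 pathway lists, with the number tested in parentheses and a bar at the median. The 3 genes with an unadjusted p under 0.05 (red) are Mx1, Ifit2 and Dnase2a, and the medians run from -0.42 for the interferon-stimulated genes to 0.11 for the nucleases, whose median turns to -0.20 without cryoablation replicates 2, 4 and 5.

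Markers of cells that carry the route, and of blood, were read beside these lists. Calls are at an unadjusted p under 0.05, as for 3.74% (higher) and 1.17% (lower) of all genes, and none passed the adjustment. Of 8 macrophage markers 1 was lower (Adgre1, at -0.69) and 0 were higher. Of the 8 values 4 lay above 0, with a median of 0.01. Adgre1 reached 239 CPM in 1 control tumor, against a control median of 59.8. The summed FPKM of the 8 ran from 1448 to 3544 in control and from 920 to 4238 in cryoablation tumors. Of 7 dendritic cell markers 0 were called, with summed FPKM of 10.2 to 36.1 and 7.01 to 20.6. Of 6 markers of plasmacytoid dendritic cells, the chief producers of interferon α, 5 were tested: Tcf4 was higher, at 0.36, and Ccr9 lower, at -1.03. Bst2, in the same list, is also 1 of the 24 interferon-stimulated genes. Of 5 erythroid markers 4 were tested and 4 were higher, with log2 fold changes of 0.71 to 1.75 and summed FPKM of 7.49 to 87.4 in control and 33.8 to 171 in cryoablation tumors. Of 6 neutrophil markers 4 were tested and 2 were higher, S100a8 at 1.34 and S100a9 at 1.61 (exact permutation p = 0.0554 and 0.127). Retnlg was at 0.26 and Csf3r at -0.51. The summed FPKM of the 6 was 3.80 to 49.0 in control and 3.66 to 76.2 in cryoablation tumors. The study had named hemoglobin genes, S100a8 and S100a9 from these same tumors, so these calls are not independent of it. The part of these cell types in the values above was not tested.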

How the data were processed

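The authors isolated mRNA with magnetic beads and sequenced it on a NovaSeq platform. They deposited, per gene and tumor, counts of reads, which are not normalized, and FPKM, which in all 372827 values checked could be rebuilt from the count, the gene length in the table and the tumor's total. The aligner, the counting program and its strand setting are not given in the sources used here. The submitters' processing notes name GRCm38 and mm10, but 0 of the 10 members lie at their RefSeq GRCm38 positions in the table, so positions are given as the authors list them, with no build. Gene names and lengths are also theirs, with 0 columns of other samples in the table.

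Counts were tested with edgeR 4.0.16 in R 4.3.3 (TMM, filterByExpr by group, quasi-likelihood F test, group as the only term), with Benjamini-Hochberg adjustment over the 13005 genes tested. Standard errors were taken from the estimate and its F statistic. CPM of single genes were compared on a log2 scale with a prior count of 2, by an exact permutation test (two-sided) over the 24310 splits into 9 and 8 tumors, whose smallest p is 4.11e-05. Correlations across tumors had 100000 resamples, or all orders under 10 tumors. For the score, the adjustment planned over the members was replaced by one over all genes outside the score. The scripts were tested on simulated counts.

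Named were all members, the 2 tested genes of each pathway list with the smallest p, the 3 genes most correlated with each member, marker genes of described lists, and genes that overlap a member. Rsad2, Ifit1, Cxcl10 and Isg15 were chosen after their values were seen, as were the split of the tumors by Tbk1 and the leukocyte score. The members and lists were chosen with earlier results of these data known. Alternatives were DESeq2 1.42.0, limma 3.58.1 voom with sample weights, edgeR's exact test, 2 other normalizations, 2 other count filters, a replicate block, gene length offsets (natural spline, 4 degrees of freedom) and leaving out tumors.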

Additional observations from a re-analysis of the deposited data

Results flagged for a closer look

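In groups of 8 or 9 tumors, the highest or lowest tumor was compared with its nearest neighbor over the group's range (Dixon's 95% limit). Of 54 groups tested 10 stood out, where chance alone flags about 1 in 20 groups.

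Control replicate 4 was the highest of its group for Sting1 (110.1 CPM, next 81.6), Ifnar1 (106.6 CPM, next 94.6), Irf4 (11.32 CPM, next 6.24), Irf5 (101.8 CPM, next 64.5) and Cd24a (60.31 CPM, next 19.2). Cryoablation replicate 4 was the highest of its group for Hmgb1 (690 CPM, next 412), its relative Hmgb2 (1050 CPM, next 738) and Cd24a (25.85 CPM, next 11.4). Ifnb1 stood out in control replicate 2, with 13 counts against 2 in the next tumor, and in cryoablation replicate 6, with 7 counts against 1.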

How the results depend on the processing

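The number of genes with an unadjusted p under 0.05, 639 in the test reported, was 1312 with limma voom, 992 without a filter, 325 without cryoablation replicates 2, 4 and 5, and 252 to 1388 when 1 tumor was left out. No setting gave a gene with an adjusted p under 0.05. Members with an unadjusted p under 0.05, 0 as reported, were 1 with DESeq2 (Cgas), 2 with limma voom (Cgas and Tbk1) and 0 to 3 when 1 tumor was left out (Cgas, Irf3 or Tbk1, without control replicate 1, 5 or 7 or cryoablation replicate 3, 6 or 7). Cgas stayed below 0 in every setting, from -0.61 to -0.23.

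The labels do not say what the replicate numbers stand for. Of 8 same-numbered pairs 4 had correlated deviations over 0.1, up to 0.64, and 2 of 8 cryoablation tumors were closest to their own number. A pairing by number was therefore not assumed, and it is not excluded. With a replicate block 439 genes and 1 member, Cgas at -0.56, had an unadjusted p under 0.05.

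Without cryoablation replicates 2, 4 and 5 the log2 fold change reversed to -0.080 for Irf3, -0.082 for Hmgb1, -0.0084 for Ifnar1, -0.059 for Dnase2a, -0.20 for Rnaseh2c, -0.028 for Hmgb2, -0.052 for Gsdmd, -0.0048 for Atrip, -0.088 for Bcl2l12 and -0.055 for Uspl1, which overlaps Hmgb1. Bcl2l12 was also -0.0030 with gene length offsets and -0.050 with limma voom. Ifnar1, at 0.00, was -0.011 without a filter, -0.024 with the block and -0.017 with upper-quartile normalization. With 1 tumor left out, Ifnar1 ran from -0.040 to 0.055, Aim2 from -0.17 to 0.020 and Cd24a from -1.06 to 0.056, both highest without control replicate 4, and Uspl1 from -0.036 (without cryoablation replicate 5) to 0.11. Of the members, 4 were related to the interferon score as reported, and 2 (Sting1 and Aim2) without the 2 tumors farthest from its median. Without cryoablation replicates 2, 4 and 5 there were 4, with Irf3 (r = -0.55) in place of Tbk1. With gene length offsets there were 6, with Irf3 (r = -0.56) and Hmgb1 (r = -0.53) running against the score, and r of Ifnar1 was -0.23. The causes were not tested. Depth limits Ifnb1 and the other interferon genes, which had 27 and 34 reads in all.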

Other observations

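The level of leukocyte RNA was compared with the members after the data were seen. The score was the mean log2 CPM of 5 leukocyte markers, and 9 relations (8 members and the interferon-stimulated gene score) were computed in each set of tumors. Over 17 tumors Sting1 had Pearson r = 0.72 (permutation p = 0.00296, adjusted 0.0149) and Spearman rho = 0.56 (permutation p = 0.0201), and Aim2 had r = 0.70 (permutation p = 0.00331, adjusted 0.0149) and rho = 0.50 (permutation p = 0.0445). Without the 2 tumors farthest from the median of the leukocyte score, r was 0.32 for Sting1 and 0.51 for Aim2, so the relation of Sting1 rested on those tumors. The interferon-stimulated gene score had r = 0.38 (permutation p = 0.129).

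Within the 9 control tumors Ifnar2 (r = 0.92), Sting1 (r = 0.94) and Aim2 (r = 0.83) followed the leukocyte score, with exact permutation p values of 0.000546, 0.00100 and 0.00645 and adjusted values of 0.00451, 0.00451 and 0.0193. Within the 8 cryoablation tumors the same genes had r of 0.04, 0.37 and 0.41, with exact permutation p values of 0.941, 0.381 and 0.319. In these 8 tumors Tbk1 had r = -0.77 (exact permutation p = 0.0211, adjusted 0.190). The difference between the groups was not tested.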
